A study of Mus musculus with 8 samples.

Results

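Where histone H3.3 sits was compared between C3H10T1/2 cells that carry a lysine-to-methionine change at position 36 of H3.3 (H3.3K36M) and cells that carry wild type H3.3 (H3.3WT). C3H10T1/2 are mesenchymal progenitor cells derived from C3H mouse embryos. Both lines stably express the histone with a FLAG-HA tag, and the tagged protein was pulled down with an HA antibody for chromatin immunoprecipitation and sequencing (ChIP-seq). The values are RPM (reads scaled to the size of the library) in 10 kb bins of the mouse build mm9, for 1 HA library of each line. Of 253926 rows in the table, 245206 bins of 10 kb on chromosomes 1 to 19 and X whose mean of the 4 HA libraries reached 0.5 RPM were used. The other 2 libraries, H3.1WT and H3.1K36M, come from lines that express FLAG-HA-tagged H3.1 without and with the same change, and serve here as a comparison that shares no library with the H3.3 ratio. Whether a line is 1 clone or a pool, which promoter drives the transgene and how much endogenous H3 remains are not given in the sources used here.

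H3.3 is the H3 variant that can be placed in chromatin outside DNA replication. The HIRA chaperone complex deposits it at active genes and regulatory elements, and DAXX with ATRX deposits it in heterochromatin. H3.1, the replication-coupled variant, is laid down genome-wide as DNA is copied. Lysine 36 of H3 is methylated by enzymes such as NSD1, NSD2 and SETD2, and the methionine substitution, found in chondroblastoma, a cartilage tumour, inhibits such enzymes in a dominant way.

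A median bin held 129 reads in H3.3WT and 116 in H3.3K36M, so counting error is modest in such a bin. It is larger in bins with less signal, and no difference below has a replicate behind it. Sizes of difference and intervals therefore describe these libraries, and no p-value is given. The ratio of H3.3K36M to H3.3WT was taken on log2(RPM + 0.1), and its median over all bins, 0.10, was subtracted. A bin at least 2-fold above that median is called gained and a bin at least 2-fold below it lost, by size alone. The input libraries were not used here, so DNA copy number, background and histone placement cannot be told apart.

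H3.3 signal in H3.3K36M was higher in some bins that were poor in H3.3 in the wild type line, and lower in some bins that were rich in it. There were 4748 gained bins, 1.94% of all, and 6695 lost bins, 2.73% of all. Gained bins had a median of 1.55 RPM for H3.3WT and 4.05 RPM for H3.3K36M, and lost bins had 5.96 RPM and 2.67 RPM. In H3.3WT the median of all bins was 2.77 RPM, and 94.9% of gained bins lay below it against 2.54% of lost bins. H3.3WT enters the ratio, so these starting levels describe the bins and test nothing. The share of gained among gained and lost bins was 41.5%, but it was 61.9% when no median was subtracted (7211 gained, 4434 lost) and 56.4% when bins under the median signal were left out. Which direction prevails is thus not fixed by these data.

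**Figure D1:**
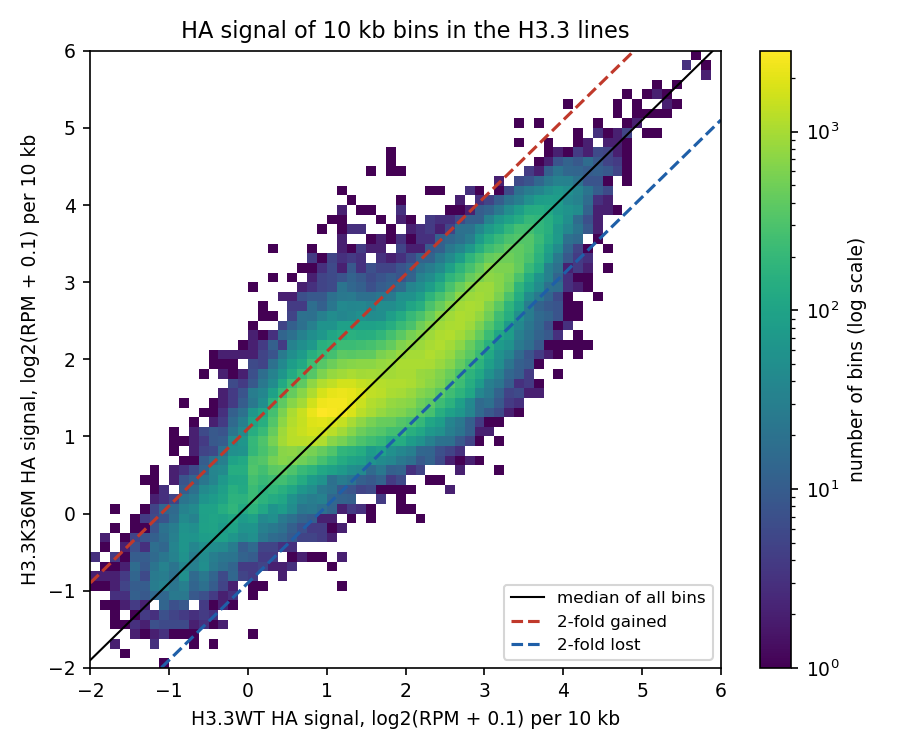
Number of 10 kb bins (colour, log scale) by HA signal in H3.3WT (x axis) and H3.3K36M (y axis), both as log2(RPM + 0.1), without 27 bins outside the plotted range. The black line is the median ratio of all bins and the dashed lines mark 2-fold above and below it. The 4748 gained bins lie mostly at low H3.3WT signal, and the 6695 lost bins at middle to high H3.3WT signal.

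At the median the same bins moved little in H3.1, although lost bins had a wider lower tail. The median of H3.1K36M over H3.1WT, centred in the same way, was -0.02 in gained bins and -0.04 in lost bins on the log2 scale. In gained bins H3.1 held a median of 3.34 RPM for H3.1WT and 3.302 RPM for H3.1K36M. In lost bins these medians were 3.59 and 3.57 RPM. By the same 2-fold rule H3.1K36M was higher in 30 of all bins (0.0122%) and lower in 156 (0.0636%). Among the gained bins 2 were higher and 14 lower by this rule, and among the lost bins 2 were higher and 46 lower. Lost bins were thus at least 2-fold lower in H3.1K36M in 0.687% of cases and gained bins in 0.295%, against 0.0636% of all bins. From the 5th to the 95th percentile the H3.1 ratio ran from -0.66 to 0.42 in lost bins. This range was -0.43 to 0.44 in gained bins and -0.38 to 0.38 in all bins.

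Measured by the share of reads, lost bins held 4.41% of the H3.3WT signal in the used bins and 1.98% of the H3.3K36M signal. Gained bins went from 0.808% of the H3.3WT signal to 2.19% of the H3.3K36M signal. In H3.1 the lost bins held 2.65% in H3.1WT and 2.46% in H3.1K36M, and the gained bins 1.60% and 1.58%. By these shares H3.3WT stood above H3.1WT in lost bins, and in gained bins H3.3 was below H3.1 in the wild type lines and above it in the K36M lines. Bins just past the 2-fold rule were much like bins just short of it. Lost bins within 0.1 log2 of the threshold had a median of 5.50 RPM in H3.3WT, and bins within 0.1 on the other side had 5.22 RPM. For gained bins both medians were 1.51 RPM.

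Starting signal was then divided into 10 equal classes. With classes from H3.3WT, the median centred log2 ratio was 0.39 in the lowest class (SD 0.16 over the 20 chromosomes), -0.36 in class 8 (SD 0.13) and -0.25 in the highest (SD 0.15). Because H3.3WT also stands in the ratio, such classes lean toward a fall, and classes from H3.3K36M lean the other way. With classes from H3.3K36M the values were 0.04 (SD 0.12), -0.20 (SD 0.13) and -0.04 (SD 0.15). Classes from the mean of both H3.3 libraries gave 0.22 (SD 0.13), -0.33 (SD 0.14) and -0.13 (SD 0.15). Class 8 was therefore below the median of all bins under each of these 3 divisions, and the height of the lowest class depended on the library used. With classes from the mean of both H3.1 libraries, which the ratio does not use, the median was 0.07 in the lowest class and -0.20 in the highest (SD 0.12 for each). Bins with the most H3.1 were thus low as well. Class 8 of this division stood at -0.0024 (SD 0.14). The low class 8 was therefore seen only with classes from libraries that the ratio uses.

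The classes also differed in how many bins passed the 2-fold rule. In classes from the mean of both H3.3 libraries, lost bins made up 6.79% of class 7 and 6.62% of class 8, against 0.249% of class 2 and 1.34% of class 10. Gained bins made up between 2.28% and 3.38% of classes 1 to 6 and 0.237% of class 10. With these classes the bins richest in H3.3 in both lines were seldom in either set. Where losses were most frequent depended on the library behind the classes. With classes from H3.3WT it was class 9 at 7.69%, with 5.82% in class 10, and with classes from H3.3K36M it was class 2 at 3.92%. In classes from the mean of both libraries, median levels in class 7 were 4.06 RPM for H3.3WT and 3.57 RPM for H3.3K36M, and in class 10 they were 9.52 and 9.27 RPM.

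**Figure D2:**
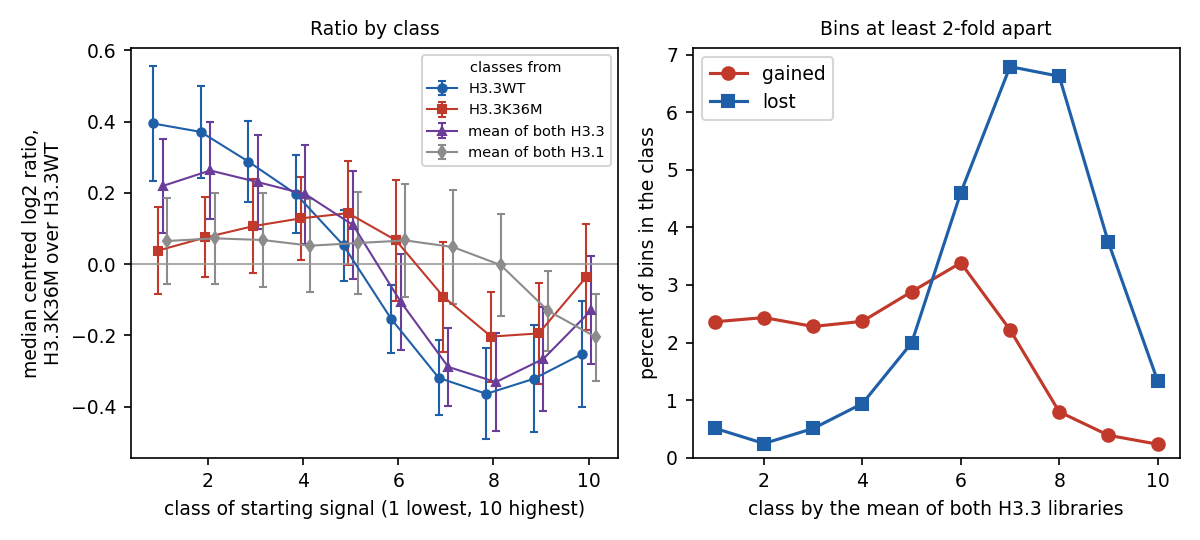
Left, median centred log2 ratio (H3.3K36M to H3.3WT) in 10 classes of starting signal, with classes from 4 sources; error bars are the SD of the medians of 20 chromosomes. Right, percent of bins gained or lost in classes from the mean of both H3.3 libraries, where losses are highest in class 7 at 6.79% and gains in class 6 at 3.38%.

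Bins were also sorted by whether each library stood at least 2-fold above its own median, here called rich. Of the 56590 bins rich in H3.3WT (23.1% of all bins), 60.7% were rich in H3.3K36M. Of the 37778 bins rich in H3.3K36M (15.4% of all bins), 90.9% were rich in H3.3WT. The rich bins of H3.3K36M were thus largely a part of those of H3.3WT, and the smaller set by itself lowers the first share. The lower and upper quartiles of all bins were 1.83 and 5.27 RPM in H3.3WT and 2.28 and 4.58 RPM in H3.3K36M. The part of this narrower spread in the gains and losses was not tested. The 22235 bins rich in H3.3WT alone had median levels of 6.45 RPM for H3.3WT and 4.77 RPM for H3.3K36M. They made up 9.07% of all bins and held 3807 of the 6695 lost bins (56.9%). The 3423 bins rich only in H3.3K36M, 1.40% of all bins, had medians of 4.71 and 6.68 RPM. They held 733 of the 4748 gained bins (15.4%). The libraries that sort the bins into these sets also set gains and losses, so these shares describe the bins and test nothing. Rich in neither library were 84.1% of gained bins, not far from the 75.5% of all bins. Of the lost bins, 62.4% ended below the H3.3K36M median of 3.004 RPM, against 49.9% of all bins.

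By the 2-fold rule, losses formed longer domains than gains. A domain is a run of touching used bins that all pass the 2-fold rule in one direction, so neighbouring domains can be parts of one broader change. The 4748 gained bins formed 3656 domains with a mean size of 12.99 kb, and the 6695 lost bins formed 3445 domains with a mean of 19.4 kb. Single bins made up 81.5% of gained and 66.4% of lost domains. Gained bins held medians of 72 reads in H3.3WT and 156.5 in H3.3K36M, and lost bins 277 and 103. Counting error can break runs of bins, and its part in the shorter gained domains was not tested. At least 50 kb was reached by 44 gained and 253 lost domains, at least 100 kb by 7 and 60, and at least 200 kb by 0 and 14. Domains of at least 50 kb held 6.72% of gained bins and 32.3% of lost bins. Without the median subtraction the counts of at least 50 kb were 82 and 153, so the order stayed, although that setting favours gains. At 3-fold, 7 of 388 gained and 7 of 324 lost domains reached 50 kb, and the difference in long domains was not seen.

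**Figure D3:**
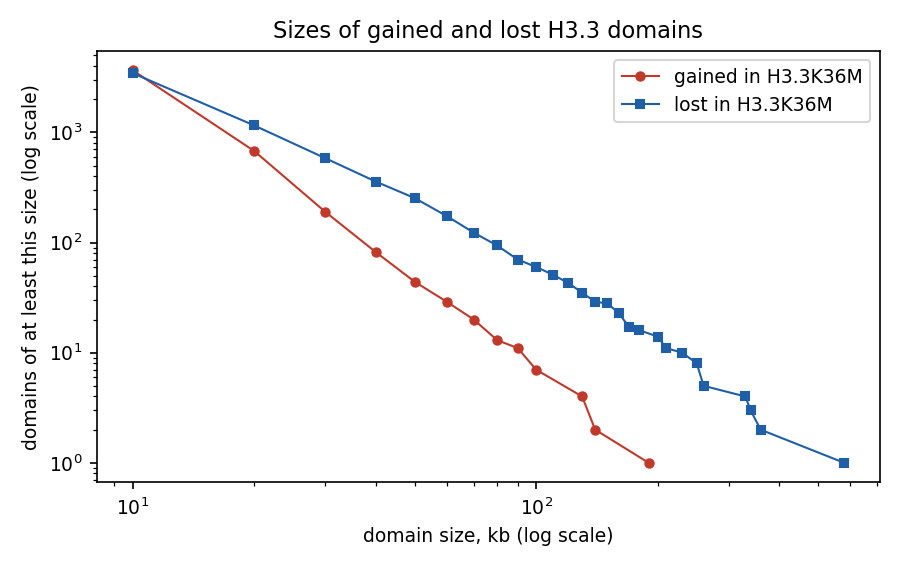
Number of domains (y axis, log scale) of at least the size on the x axis (kb, log scale) for gained and lost H3.3. The curves start at 3656 gained and 3445 lost domains and part with size, ending at 190 kb for gains and 580 kb for losses.

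Size went with starting signal in the lost domains. The median H3.3WT signal was 5.59 RPM in lost domains of 10 kb, 6.02 RPM in those of 20 to 40 kb, 6.52 RPM in those of 50 to 90 kb and 6.65 RPM in those of at least 100 kb. Their H3.3K36M signal stayed between 2.64 and 2.86 RPM in all 4 size classes. In gained domains it was the H3.3K36M signal that differed with size. It was 3.96 RPM at 10 kb, 4.17 RPM at 20 to 40 kb, 4.41 RPM at 50 to 90 kb and 8.70 RPM in the 7 domains of at least 100 kb, from H3.3WT medians between 1.51 and 1.86 RPM. H3.1 medians lay between 3.09 and 3.77 RPM in every size class of both directions. Runs of bins past a threshold are longer where the change is larger, so size and change are not independent measures.

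The longest lost domain covered 580 kb at chr7:122190001-122770000. The length of the longest loss depended on the settings: it was 300 kb with no median subtracted, 230 kb with a pseudocount of 1 RPM, and 870 kb with 1 missing bin allowed inside a domain. It averaged 5.45 RPM for H3.3WT and 2.08 RPM for H3.3K36M, with H3.1WT at 2.79 and H3.1K36M at 2.76 RPM. H3.3 was 2.81-fold lower in H3.3K36M relative to the median of all bins (exact 95% interval 2.71 to 2.90), while H3.1 differed by 1.01-fold (0.990 of the wild type level). The level went from about 2 times that of H3.1 to below it. Here and below, folds are ratios of RPM divided by the median ratio, and the Clopper-Pearson intervals come from the reads alone; they take no account of the choice of the domain or of duplicate molecules.

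**Figure D4:**
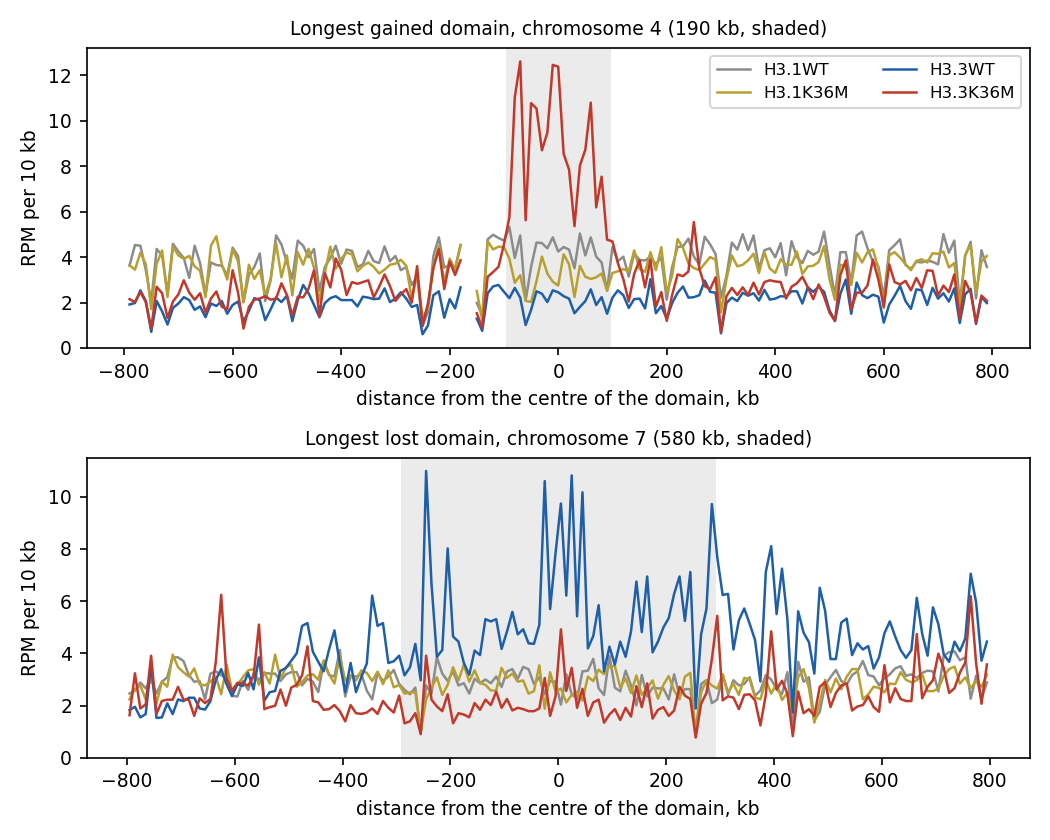
HA signal (RPM per 10 kb, y axis) of 4 libraries against the distance from the domain centre (kb) for the longest gained (top, 190 kb) and lost (bottom, 580 kb) domain, shaded. H3.3K36M stands at a mean of 8.80 RPM in the first against 2.09 RPM in H3.3WT, and at 2.08 RPM in the second against 5.45 RPM; gaps in the lines are rows that were not used.

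Other lost domains started from higher levels. On chromosome 15, 3 of the 10 longest were found. At chr15:40460001-40710000 (250 kb) H3.3WT held 10.1 RPM and H3.3K36M 3.08 RPM, 3.52-fold lower (3.38 to 3.67). At chr15:42720001-42980000 (260 kb) the levels were 12.5 and 5.04 RPM, 2.66-fold lower (2.57 to 2.74). At chr15:54230001-54570000 (340 kb) they were 9.12 and 3.62 RPM, 2.70-fold lower (2.61 to 2.79), and there H3.1 was lower too, at 3.96 RPM in H3.1K36M against 5.33 RPM in H3.1WT. H3.1 was 2.90 and 3.28 RPM in the first of these domains and 4.18 and 3.73 RPM in the second. H3.3WT stood above both H3.1 libraries in all 3, and H3.3K36M lay between them in the first, above both in the second and below both in the last.

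A pair of long losses lay within 1 Mb of each other on chromosome 9. At chr9:31750001-32080000 (330 kb) the signal was 5.48 RPM for H3.3WT and 1.90 RPM for H3.3K36M, 3.09-fold lower (2.96 to 3.24). At chr9:32850001-33080000 (230 kb) it was 6.08 and 1.88 RPM, 3.47-fold lower (3.29 to 3.66). H3.1 was 3.602 and 3.41 RPM in the first and 4.27 and 3.22 RPM in the second, so H3.3K36M ended below both H3.1 libraries in each. The remaining long losses were 360 kb at chr17:86860001-87220000 (6.50 to 2.64 RPM), 250 kb at chr17:67450001-67700000 (5.84 to 2.27 RPM), 250 kb at chr14:100370001-100620000 (5.86 to 2.32 RPM) and 230 kb at chr14:12520001-12750000 (4.90 to 2.03 RPM), each between 2.59-fold and 2.76-fold lower. In 3 of these 4, H3.1 was between 1.15-fold and 1.22-fold higher in H3.1K36M, and in chr17:86860001-87220000 it was 1.12-fold lower. The domains at chr17:86860001-87220000 and chr14:12520001-12750000 stop at a row that was not used on 1 side and that at chr14:100370001-100620000 on both, so their full extent is not known.

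By the 2-fold rule, gained domains of at least 30 kb were fewer, 190 against 583 lost ones. Folds among the 10 longest ranged from 2.49 to 5.25 for gains and from 2.59 to 3.52 for losses. The longest gain was 190 kb at chr4:23180001-23370000, with 2.09 RPM for H3.3WT and 8.80 RPM for H3.3K36M, 3.92-fold higher (3.73 to 4.14). The largest change among the 10 longest was at chr10:102960001-103090000 (130 kb), where 2.49 RPM in H3.3WT stood against 14.0 RPM in H3.3K36M, 5.25-fold higher (4.96 to 5.55). At chr8:53140001-53230000 (90 kb) the levels were 2.15 and 11.2 RPM, 4.84-fold higher (4.50 to 5.21). At chr14:95570001-95710000 (140 kb, bounded by an unused row on 1 side) they were 1.86 and 8.70 RPM, 4.37-fold higher (4.10 to 4.66). In these 4 the H3.1 signal was lower in H3.1K36M, most at the chromosome 10 domain with 3.64 RPM for H3.1WT and 1.89 RPM for H3.1K36M. H3.3K36M was thus the highest of the 4 libraries in each of them.

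On chromosome 16, domains of 130 kb at chr16:47470001-47600000 (1.56 to 4.73 RPM) and 90 kb at chr16:47610001-47700000 (1.58 to 6.25 RPM) were separated by 1 bin. They were 2.82-fold (2.61 to 3.04) and 3.70-fold (3.39 to 4.04) higher in H3.3K36M. A 100 kb domain at chr12:6700001-6800000 went from 1.73 to 5.22 RPM, 2.81-fold higher (2.59 to 3.05), and 90 kb at chr5:39100001-39190000 from 1.80 to 6.20 RPM, 3.21-fold higher (2.96 to 3.50). At these places H3.3 was below H3.1 in the wild type lines and above it in the K36M lines.

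Among gained domains of at least 30 kb, 1 had a high starting level. At chr3:92010001-92110000 (100 kb) H3.3WT already held 7.33 RPM, and H3.3K36M held 19.6 RPM, 2.49-fold higher (2.39 to 2.59). H3.1 was high there as well, at 6.54 RPM for H3.1WT and 8.41 RPM for H3.1K36M. The next highest start among the 190 gained domains of at least 30 kb was 3.76 RPM at chr11:82980001-83010000, with 9.75 RPM in H3.3K36M. Of all 4748 gained bins, in domains of any size, 0.505% were at least 2-fold above the H3.3WT median. The other 3 of the 5 highest starts lay within 200 kb of each other on chromosome 13. Of these, chr13:27150001-27220000 (70 kb) went from 3.54 to 9.74 RPM, 2.56-fold higher (2.39 to 2.75), chr13:27060001-27090000 from 3.55 to 9.51 RPM and chr13:27230001-27260000 from 3.598 to 9.27 RPM.

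At the other end were gains that stayed poor in H3.3 in both lines. Of the 5 gained domains of at least 30 kb with the least H3.3K36M signal, 4 were on chromosome 4. At chr4:141800001-141830000 it went from 0.602 to 1.83 RPM, at chr4:139620001-139650000 from 0.745 to 2.02 RPM, at chr4:153920001-153950000 from 0.767 to 2.12 RPM and at chr4:130960001-131000000 from 0.860 to 2.36 RPM. The remaining one was chrX:122050001-122080000, with 0.817 and 2.22 RPM. These folds, between 2.53 and 2.83, rest on few reads, and the mean of each falls under 2-fold with a pseudocount of 1 RPM. The 100 kb gain at chr4:139660001-139760000 belongs to the same stretch of chromosome 4. It held 0.856 RPM for H3.3WT and 3.19 RPM for H3.3K36M, and H3.1 was 1.74-fold higher in H3.1K36M there, at 3.50 against 2.01 RPM. At the 4 low gains on chromosome 4, H3.1 was higher in H3.1K36M by between 1.12-fold and 1.70-fold. The lowest of these, at chr4:141800001-141830000, had a 95% counting interval of 0.92 to 1.37, which holds 1. The part of this H3.1 difference in the H3.3 gain was not tested.

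The strongest H3.3WT signal among lost domains of at least 30 kb was on chromosome 8, at chr8:46740001-46770000 (18.8 RPM, 8.54 RPM in H3.3K36M) and next to it at chr8:46810001-46920000 (110 kb, 15.5 and 5.40 RPM, 3.08-fold lower, 2.94 to 3.22). On chromosome 10, chr10:83260001-83330000 went from 16.1 to 6.33 RPM and chr10:83440001-83570000 from 13.8 to 5.76 RPM. These 2 chromosome 10 domains were lower in H3.1K36M as well, 1.61-fold (6.71 against 10.8 RPM) and 1.74-fold (6.69 against 11.7 RPM). Near the end of chromosome X, chrX:166140001-166230000 went from 13.7 to 5.72 RPM with H3.1 at 4.30 and 4.16 RPM. Of these 5 losses, both on chromosome 10 and the smaller one on chromosome 8 (1.34-fold) were thus shared in direction with H3.1.

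Long domains lay within broader shifts of the same sign. Both libraries enter the 2-fold rule that sets an edge, and the first bin outside must miss it, so levels at the edge do not show which library changed there. Inside the lost domains of at least 50 kb the median bin held 6.43 RPM for H3.3WT and 2.69 RPM for H3.3K36M. In the first bin outside it held 5.81 and 3.39 RPM, at 50 kb 5.68 and 2.75 RPM, at 200 kb 4.77 and 2.90 RPM, and at 500 kb 4.38 and 3.03 RPM. The H3.3WT signal thus sloped down with distance while H3.3K36M stayed close to its genome median of 3.004 RPM, apart from the first bin outside. The median ratio was still 1.34-fold below the genome median at 500 kb. At 50 kb from an edge 52.5% of bins were themselves lost and at 500 kb 17.7%, against 2.73% of all bins.

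The gained domains had low H3.3WT signal inside and outside. Inside those of at least 50 kb the median bin held 1.61 RPM for H3.3WT and 4.82 RPM for H3.3K36M. In the first bin outside the levels were 1.57 and 2.93 RPM, and at 500 kb 1.96 and 2.77 RPM. The bins beside the domains remained 1.65-fold higher at 50 kb and 1.20-fold higher at 500 kb. In H3.1 the flank medians on the centred log2 scale, at distances from 10 to 500 kb, lay between -0.16 and -0.04 around lost domains and between -0.0037 and 0.16 around gained ones. They thus leaned the same way as the H3.3 shift, and the part of this H3.1 difference in it was not tested.

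**Figure D5:**
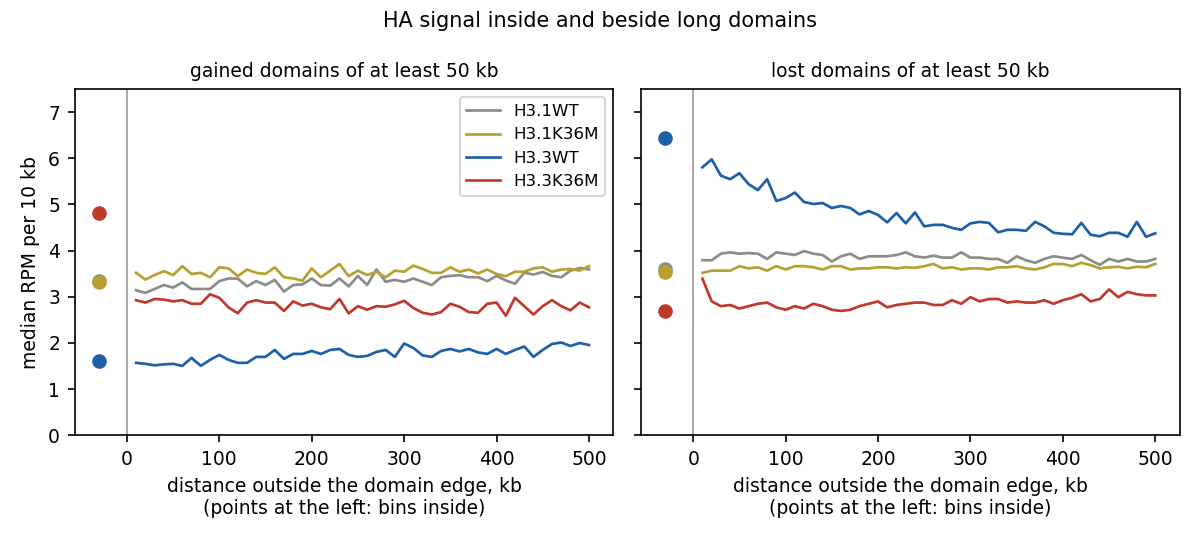
Median RPM per 10 kb of 4 libraries in bins inside (points at the left) and outside (lines, kb from the nearest edge) the 44 gained and 253 lost domains of at least 50 kb. In lost domains H3.3WT slopes from 6.43 RPM inside to 4.38 RPM at 500 kb, and in gained domains H3.3K36M is at 4.82 RPM inside and at 2.93 RPM in the first bin outside, which misses the 2-fold rule by definition.

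Lost domains of at least 30 kb lay closer to each other than gained ones, which were fewer. Of the 583 lost domains of at least 30 kb, 67.8% had another within 100 kb, with a median gap of 40 kb. Of the 190 gained ones 27.4% did, with a median gap of 1455 kb, and a smaller number of domains by itself gives wider gaps. Shares for domains placed at random were not computed, so which direction clusters more is not shown. Close neighbours can also be parts of 1 run cut by a bin that misses the rule. None of the 190 gained domains of at least 30 kb had a lost one of that size within 100 kb, and 13 had one within 1 Mb. The share of all bins that lie so close to a lost domain was not computed. These counts therefore do not show that gains and losses lie apart more than other places do, and shorter domains were not counted. The closest pair was on chromosome 2, where the gain at chr2:136150001-136190000 (2.33 to 8.14 RPM) lay 300 kb from the loss at chr2:135690001-135850000 (7.07 to 2.93 RPM). The same gain lay 470 kb from a further loss at chr2:135600001-135680000. On chromosome 5 the gain at chr5:17710001-17740000 (1.65 to 4.90 RPM) was 430 kb from the loss at chr5:17230001-17280000 (7.99 to 3.62 RPM), and on chromosome 9 that at chr9:68220001-68250000 was 430 kb from chr9:67750001-67790000. The last of the 5 closest pairs, chr12:91680001-91710000 and chr12:92230001-92350000, was 520 kb apart.

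In windows of 5 Mb the losses were the more concentrated. The 50 of 502 windows with the most lost bins held 49.5% of them, and the 50 with the most gained bins held 36.3% of those. No lost bin was found in 119 windows and no gained bin in 65. The highest shares of lost bins were 39.0% at chr15:50000001-55000000 and 34.5% at chr15:40000001-45000000, with medians of 6.25 and 6.15 RPM in H3.3WT and 3.41 and 3.32 RPM in H3.3K36M. Next came chr11:110000001-115000000 at 26.1%, chr2:135000001-140000000 at 25.5% and chr14:100000001-105000000 at 19.2%. Medians of H3.1 in these 5 windows lay between -0.13 and -0.04.

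Gained bins reached 13.8% at chr4:150000001-155000000, 13.6% at chr18:45000001-50000000, 13.02% at chr13:55000001-60000000, 11.8% at chr2:170000001-175000000 and 10.9% at chr18:85000001-90000000. Both chromosome 18 windows had a centred log2 ratio of H3.1 slightly below 0 (-0.04 and -0.08). The other 3 were higher in H3.1 too, by 0.29, 0.22 and 0.20, beside 0.29, 0.42 and 0.43 in H3.3. Whether a gain of both variants in these 3 windows comes from DNA copy number or from placement cannot be told apart here.

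Chromosomes differed in which direction they held. On chromosome 15 the median centred log2 ratio was -0.30, 8.35% of bins were lost and 0.418% gained, and 19 of its 20 windows had a median below 0. On chromosome 18 the median was 0.26, with 5.69% gained and 0.365% lost, and on chromosome 13 it was 0.19, with 4.47% and 0.794%. Of the domains of at least 50 kb, chromosome 15 held 38 lost and 0 gained, and chromosome 18 held 0 lost and 7 gained. Chromosome X had few of either, with 0.901% gained and 0.464% lost. In H3.1 the medians of chromosomes 15, 18 and 13 were 0.04, -0.08 and 0.03. The low median of chromosome 15 in H3.3 was therefore not seen in the H3.1 pair. In its windows at chr15:50000001-55000000 and chr15:40000001-45000000, H3.1 was below 0 too, at -0.13 and -0.12, beside -0.87 and -0.82 in H3.3. A copy number that differs between the H3.3 lines alone was not tested, as the inputs were not used here. With the median of each chromosome subtracted, 4317 bins were gained and 6173 lost, and 32 gained and 215 lost domains reached 50 kb.

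With all chromosomes pooled, gains were more frequent toward the chromosome ends, and the share at each single end is not given here. The last 10 Mb of the used bins, taken over all chromosomes, held 3.02% gained bins, against 1.68% in the first 10 Mb, next to the centromere in these acrocentric chromosomes, and 1.86% between. Lost bins made up 2.97%, 2.87% and 2.70%. The median of the last 10 Mb ranged from -0.30 to 0.59 between chromosomes and was above 0 on 9 of 20, so the ends did not share 1 direction. H3.1 stood 0.06 above its median there. Bins next to a row that was not used were about as frequent among gained (3.77%) and lost bins (3.67%) as among all bins (3.46%).

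The authors' H3.3K36M peaks touched 7.01% of gained bins and 0.508% of lost bins, against 4.25% of all bins. The peak list comes from H3.3K36M, which also enters the ratio, so these shares describe the bins and test nothing. Of the 44 gained domains of at least 50 kb, 12 held a bin with a peak. The chromosome 10 gain had a peak in 10 of its 13 bins, and the longest gain, on chromosome 4, had none. Among the 253 lost domains of that size 12 held a peak, among them chr15:42720001-42980000 with 3 peak bins, which kept 5.04 RPM in H3.3K36M. A longer run of bins has more room to hold a peak. The share of runs of like length over all bins was not computed, so these domain counts have no base.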

How the data were processed

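The authors deposited 1 table of RPM per genomic bin for 4 HA libraries, and peak positions in a coordinate unit with no score. Bowtie 1.0.0 and mm9 are named in the submitters' processing notes. The counting of reads in bins, the handling of duplicates and the peak calling are not stated in these sources. Groups follow the genotype label, although the H3.3 ChIP titles begin with an H3.1 name. The labels' protocol text also names another antibody (Cbx2), and the sample descriptions, which name HA, were followed.

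In each RPM column deposited by the authors 100% of values were whole multiples of the value of 1 read, within 0.01 of a read. The recovered totals were 46749609 reads for H3.3WT and 38783917 for H3.3K36M, and for the H3.1 libraries 35487141 (WT) and 41705735 (K36M). Recovered reads served for exact (Clopper-Pearson) 95% intervals. No count test was run, since 1 library per line leaves no residual degrees of freedom. Rows wider than 10 kb (4029) and bins under 0.5 RPM (2387) were left out. A pseudocount of 0.1 RPM was added, so changes at low signal are understated, and the median of all bins was subtracted. RPM is relative to the library, so a global change in H3.3 cannot be seen. Coordinates are 1-based in mm9.

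Named regions are the 10 longest domains of each direction, the 5 gained and 5 lost domains of at least 30 kb with the highest H3.3WT signal, the 5 gained with the lowest H3.3K36M signal, the 5 closest opposite pairs and the 5 windows of 5 Mb with the largest share in each direction. Members, rules and lists were chosen with earlier results of these data known. The gene table at hand is of another build, so genes could not be assigned to bins, the gene lists were not analysed here, and no sequence is printed. Code was tested on simulated data. The tools were scipy 1.17.1, pandas 2.3.3, numpy 2.4.6 and matplotlib 3.10.9 under Python 3.11.15. Alternatives are given in the closing section.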

Additional observations from a re-analysis of the deposited data

Results flagged for a closer look

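Of the 34 named domains, 11 differed in opposite directions in H3.3 and in H3.1, with the 95% counting interval of the H3.1 fold on the other side of 1. The rest of the 34 moved the same way in H3.1 or had an H3.1 interval that held 1. Over all domains of at least 50 kb, H3.1K36M stood above the H3.1 median ratio in 21 of 44 gained and 112 of 253 lost ones. H3.1 was lower by at least 0.5 log2 in 29 lost and 2 gained ones, and higher by at least 0.5 log2 in 1 lost and 5 gained. Opposite directions are thus not a general trait of the long domains. With 1 library per line the difference between the variants was not tested. Among gained domains, H3.1 was lower in H3.1K36M by 1.92-fold at chr10:102960001-103090000, by 1.35-fold at chr4:23180001-23370000, by 1.25-fold at chr14:95570001-95710000, by 1.20-fold at chr8:53140001-53230000, by 1.19-fold at chr12:6700001-6800000, and by 1.18-fold at both chr16:47470001-47600000 and chr16:47610001-47700000. Among lost domains, H3.1 was higher in H3.1K36M by 1.22-fold at chr17:67450001-67700000, by 1.16-fold at chr14:100370001-100620000, by 1.15-fold at chr14:12520001-12750000 and by 1.13-fold at chr15:40460001-40710000.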

How the results depend on the processing

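Among the settings run for named domains (2 other pseudocounts, no median and the median of each chromosome subtracted), all 34 domains kept their direction, and 130 of 136 values remained at least 2-fold. The other 6 were short gains with a pseudocount of 1 RPM. Every bin of these domains passes 2-fold in the same libraries by choice. These settings could hardly reverse the direction, so its being kept lends no support to the domains. No paired analysis was possible because each line has 1 library and the labels give no replicate numbers.

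With a pseudocount of 1 RPM there were 1297 gained and 2518 lost bins in 1064 and 1465 domains, of which 11 and 74 reached 50 kb, the longest loss was 230 kb, and the median H3.3WT signal was 1.81 RPM in gained and 7.10 RPM in lost bins. With 0.01 RPM these medians were 1.51 and 5.83 RPM. With only bins at or above the median signal there were 2996 gained and 2313 lost bins, 1445 lost domains, 18 gained and 63 lost domains of at least 50 kb, a longest loss of 230 kb, medians of 2.19 and 7.10 RPM in H3.3WT, and a peak in 14.5% of gained bins; this filter itself takes out bins with little signal. Without the median subtraction 7211 bins were gained and 4434 lost, 82 and 153 domains reached 50 kb, the longest loss was 300 kb, lost bins started from 6.21 RPM and 5.56% of gained bins had a peak. With each chromosome's median subtracted, lost bins started from 5.83 RPM. At 1.5-fold there were 24713 gained and 29385 lost bins in 14573 and 11562 domains, the longest of 300 and 1060 kb, with 621 and 1370 of at least 50 kb. At 3-fold there were 486 and 458 bins in 388 and 324 domains, of which 7 and 7 reached 50 kb. In 50 kb bins 295 were gained and 939 lost, a gained share of 23.9%. With 1 missing bin allowed inside a domain, 121 gains and 409 losses reached 50 kb and the longest loss was 870 kb. Without chromosomes 13, 15 and 18, chosen after seeing the data, gained and lost bins started from 1.59 and 5.83 RPM and 0.335% of lost bins had a peak.

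The median centred log2 ratio of the lowest, eighth and highest class was 0.038, -0.20 and -0.036 with classes from H3.3K36M. The lowest was 0.22 with the mean of both H3.3 libraries, and the lowest and eighth were 0.065 and -0.0024 with the mean of both H3.1 libraries. By summed RPM chromosome 15 stood at -0.40 and chromosome 18 at 0.19, and with bins at or above the median chromosome 15 stood at -0.20. Within 5 Mb of the ends, 1.26% of bins were gained and 2.53% lost at the start, and 1.74% lost at the end of chromosomes. The cause of these shifts was not tested, apart from the fewer or wider bins that a setting creates. Depth limits the bins at low signal most: a gained bin rested on a median of 72 reads in H3.3WT.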
